A study of Mus musculus with 20 samples.

Results

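The transcripts described here encode Klf6 and 4 transcription factors of the immediate-early class, Fos, Jun, Junb and Egr1. They were chosen by identifier: ENSMUST00000000080 (Klf6), ENSMUST00000107094 (Jun), ENSMUST00000064922 (Junb), ENSMUST00000021674 (Fos) and ENSMUST00000064795 (Egr1), each kept if at least 1 file listed it. All 5 were kept, of 15354 transcripts listed in any file. The files hold identifiers without gene names, so the symbols come from that choice and not from the files. The 5 were proposed with results of these data known, and which values led to the choice is not stated, so no test below is independent evidence about them as a group.

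Ribosome-protected fragments were sequenced from mouse embryonic fibroblasts of strain C57BL/6J in 20 libraries: 12 of Ribo-seq, which samples all translating ribosomes, and 8 of eIF3-80S, which samples ribosomes bound by the initiation factor eIF3. Cells were control cells, Ogt knockout cells or cells given Thiamet-G, and each was either fed or starved of amino acids. OGT adds the sugar O-GlcNAc to proteins, and Thiamet-G inhibits the enzyme that removes it. All cells were kept in DMEM with 10% fetal bovine serum. Starvation was 2 h in DMEM with "DFBS", which the labels do not explain. The effects of amino acid lack and of the change to this medium and its serum therefore cannot be told apart. Knockout was induced with 0.5 µM 4-OHT for 24 h, followed by 24 h in fresh medium, and Thiamet-G treatment was at 0.1 µM and lasted 16 h. The labels give 4-OHT to the knockout only, so the effects of the drug and of Ogt loss cannot be told apart. They do not say what drives the recombinase, nor how the control cells were handled. Ribo-seq has 2 libraries in each of its 6 groups. The eIF3-80S libraries are 2 fed control, 2 starved control and 1 each of fed and starved knockout and fed and starved Thiamet-G. The labels do not say whether replicates came from separate cultures. The p-values of the Ribo-seq fits by group therefore reflect only how far libraries of a group lay apart, which may be technical. Those of fits with background as an additive term rest on how far the starvation difference varied between backgrounds. For Ribo-seq they rest also on how far backgrounds differed between the 2 library sets described below. For eIF3-80S they rest also on how far the replicate control libraries lay apart. The depletion of Ogt and fibroblast markers were not analysed here, because the identifiers could not be paired with symbols.

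Immediate-early genes are transcribed within minutes of a stimulus from transcription factors already present in the cell, without new protein synthesis, and their mRNAs and proteins are short-lived. FOS and JUN family proteins pair through leucine zippers to form AP-1, which binds DNA at TRE and CRE sites. EGR1 and KLF6 bind GC-rich DNA through zinc fingers. In fibroblasts the class is best known for its response to serum growth factors, and several members also respond to stress.

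The promoters of Klf6, Jun, Junb and Fos are shown first. The transcripts of Klf6, Junb and Fos rose together in one set of libraries described below, while that of Jun did not pass the test there. RefSeq windows of the build GRCm38.p6 were used, with the 250 bases before each annotated start written 5′ to 3′ on the gene's own strand. Capitals mark TGACATCA in Klf6 and Jun and TGACG in Junb and Fos. The windows lie at chr13:5861239-5861488 (plus strand) for Klf6, chr4:95052223-95052472 (minus strand) for Jun, chr8:84978749-84978998 (minus strand) for Junb and chr12:85473640-85473889 (plus strand) for Fos.
Klf6: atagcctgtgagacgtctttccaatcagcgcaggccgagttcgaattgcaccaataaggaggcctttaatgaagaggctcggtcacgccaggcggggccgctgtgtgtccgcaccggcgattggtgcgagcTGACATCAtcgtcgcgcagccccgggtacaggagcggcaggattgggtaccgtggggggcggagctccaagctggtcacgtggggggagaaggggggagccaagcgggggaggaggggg
Jun: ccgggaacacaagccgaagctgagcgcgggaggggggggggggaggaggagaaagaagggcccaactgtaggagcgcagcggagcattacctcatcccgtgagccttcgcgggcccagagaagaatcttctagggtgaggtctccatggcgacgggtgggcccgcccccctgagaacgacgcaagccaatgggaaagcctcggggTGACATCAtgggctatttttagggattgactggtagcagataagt
Junb: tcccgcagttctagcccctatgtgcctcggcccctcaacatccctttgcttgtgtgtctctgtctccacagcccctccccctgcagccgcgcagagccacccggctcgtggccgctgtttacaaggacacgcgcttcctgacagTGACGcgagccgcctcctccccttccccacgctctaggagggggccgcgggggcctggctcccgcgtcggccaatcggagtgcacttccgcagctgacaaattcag
Fos: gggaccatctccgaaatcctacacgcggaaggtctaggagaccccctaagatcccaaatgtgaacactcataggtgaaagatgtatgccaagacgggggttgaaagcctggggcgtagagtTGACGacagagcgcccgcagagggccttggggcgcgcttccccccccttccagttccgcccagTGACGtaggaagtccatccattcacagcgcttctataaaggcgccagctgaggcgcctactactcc
Each window ends at the base before the annotated gene, which spans 5861489 to 5870393 for Klf6, 95049036 to 95052222 for Jun, 84976909 to 84978748 for Junb and 85473890 to 85477274 for Fos. Counted back from the start, with -1 the base before it, TGACATCA runs from -119 to -112 in Klf6 and from -45 to -38 in Jun. TGACG begins at -106 in Junb and at -129 and -66 in Fos. Both motifs were searched on both strands, and were added after the windows had been seen. Over all 32851 RefSeq windows, which also include the 50 bases after each start, 3.62% held TGACATCA and 20.8% held TGACG. Of the motifs listed earlier, the full CRE TGACGTCA (1.79% of all windows), the TRE TGACTCA (5.20%), the EGR site GCGTGGGCG (0.612%) and the CArG box (1.63%) were found in none of the 4 windows. Neither marked motif was shared by Klf6, Junb and Fos. These are matches of letters within the windows, and say nothing of sites further away or of whether a factor binds. No window was at hand for Egr1, which is described by its values alone.

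Levels are the deposited RPKM, reads scaled to transcript length and library total, so they can be compared between transcripts. Whole reads recovered from the RPKM steps gave coding lengths of 957 nt for Klf6, 1005 nt for Jun, 1035 nt for Junb, 1143 nt for Fos and 1602 nt for Egr1. Library totals were 844403 to 5846130 reads for Ribo-seq and 52148 to 359282 for eIF3-80S. The Ribo-seq files fell into 2 sets with 1 library of each group in each. In the first set, files list transcripts from 5 reads up: at most 0.029% of listed transcripts had fewer. In the second set they list from 1 read up, and 10.00% to 18.1% had fewer than 5. Totals were 958140 to 5846130 reads in the first set and 844403 to 3030545 in the second. The first set is replicate 1 of each group by title, except that for starved Thiamet-G it is replicate 2, where titles and file names carry opposite numbers. The sets were found in the files and the labels do not mention them, so Ribo-seq values are also given within each set. In bulk libraries, a change in the share of responding cells and a change per cell cannot be told apart. Footprint levels also join mRNA level and translation, which these files do not separate.

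In the first set, Klf6, Junb, Fos and Egr1 rose on starvation and passed the test there, at 3.73 to 61.7 times the fed RPKM over the 3 backgrounds. Jun, at 1.40 to 4.75 times, was also higher in all 3 and did not pass. The second set had none that passed, and in the knockout pair of that set all 5 were lower in the starved library, Klf6 and Jun within counting error. The share of all transcripts lower in that pair was not counted. Fos and Egr1 differed between the sets already in fed cells. Averaged over all 12 libraries, none of the 5 passed the test. On eIF3-80S ribosomes, Junb and Egr1 were higher in all 4 starved than in all 4 fed libraries, as 2.44% of transcripts tested were, and neither passed the test over all transcripts (limma adjusted p = 0.103 and 0.264).

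**Figure D1:**
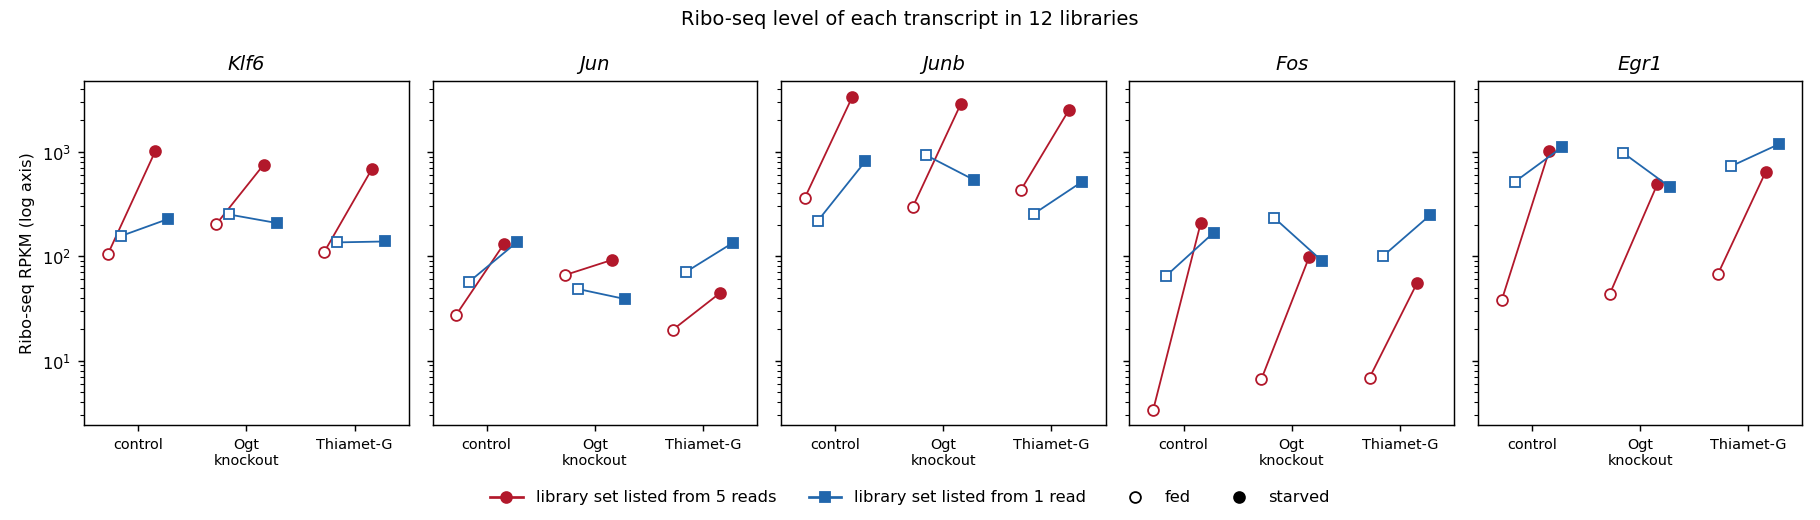
Ribo-seq RPKM (log axis) of each transcript in the 12 libraries, by background. Open points are fed and filled points starved, circles are the libraries listed from 5 reads and squares those listed from 1 read, and a line joins the fed and starved library of a set. Fos in fed libraries lies at 3.39 to 6.89 RPKM in the first set and at 65.0 to 232 RPKM in the second.

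Fos, the AP-1 subunit that pairs with JUN proteins, spanned the widest range of the 5 as a ratio of its highest to its lowest RPKM, though not in RPKM itself. In the first set it was at 3.39 RPKM in fed and 209 RPKM in starved control cells, 6.67 and 97.5 RPKM in the knockout, and 6.89 and 55.7 RPKM under Thiamet-G. The fed and starved values of the second set were 65.0 and 169 RPKM in control cells, 232 and 90.1 RPKM in the knockout, and 99.5 and 248 RPKM under Thiamet-G. Thus the 3 fed libraries of the first set, with 13 to 33 reads each, were far below all other libraries, and the starved values of the 2 sets overlapped. Within the first set the ratio of starved to fed was 61.7 in control cells (95% interval 36.0 to 116, which here and below covers counting error only), 14.6 in the knockout (10.2 to 21.6) and 8.09 under Thiamet-G (5.06 to 13.2). These 3 ratios come from 1 library a side, so their order has no replicate check. In the second set the ratio was 2.59 in control cells (2.17 to 3.10), 2.49 under Thiamet-G (2.07 to 2.999) and 0.389 in the knockout (0.304 to 0.492).

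Jun, the AP-1 subunit that can pair with itself or with FOS, was the least abundant member in the 3 starved libraries of the first set. Its fed and starved levels in the first set were 27.6 and 131 RPKM in control cells, 65.7 and 92.2 RPKM in the knockout, and 19.7 and 44.7 RPKM under Thiamet-G. Those of the second set were 57.1 and 136 RPKM, 48.6 and 38.9 RPKM, and 70.5 and 135 RPKM, in the same order of backgrounds. The starved library was higher in 5 of the 6 pairs, but starved and fed libraries overlapped in both sets. In the first set the fed knockout library was above the starved Thiamet-G library, and in the second the starved knockout library was below every fed one. The starved control libraries lay close together, at 134 ± 3.61 RPKM (SD, n = 2), against 42.4 ± 20.9 RPKM in fed control libraries.

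Junb, a JUN family member that often restrains JUN activity, was the most abundant member in all 6 libraries of the first set. In that set it was at 361 RPKM in fed and 3364 RPKM in starved control cells, 299 and 2837 RPKM in the knockout, and 434 and 2495 RPKM under Thiamet-G. In the second set the values were 218 and 811 RPKM, 928 and 540.1 RPKM, and 256 and 514 RPKM. The starved libraries of the first set were each above every other library, while the highest fed value, in the second knockout library, exceeded all starved values of its set. The starved control library of the first set held 20357 Junb reads, and Junb there was above 99.7% of the transcripts listed. Its ratio of starved to fed in that set was 9.31 in control cells (8.80 to 9.87), 9.49 in the knockout (8.96 to 10.1) and 5.75 under Thiamet-G (5.39 to 6.13). The second set gave 3.73, 0.582 and 2.01.

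Egr1, a zinc-finger activator induced by serum and stress, resembled Fos in its fed levels. In the first set it was at 37.8 RPKM in fed and 1027 RPKM in starved control cells, 43.7 and 492 RPKM in the knockout, and 67.9 and 641 RPKM under Thiamet-G. In the second set it was at 514 and 1109 RPKM, 979.7 and 455 RPKM, and 726 and 1179 RPKM. The 3 fed libraries of the first set were again the lowest of the 12, and all the others were at 455 RPKM or more. The ratio of starved to fed in the first set was 27.2 in control cells (23.6 to 31.4), 11.3 in the knockout (9.99 to 12.7) and 9.44 under Thiamet-G (8.38 to 10.7). For the second set it was 2.16, 0.465 and 1.62.

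Klf6, a zinc-finger factor of the Krüppel-like family, differed from Fos and Egr1 in that its fed levels overlapped between the 2 sets. In the first set it was at 105 RPKM in fed and 1023 RPKM in starved control cells, 202 and 752 RPKM in the knockout, and 110.0 and 683 RPKM under Thiamet-G. In the second set it was at 156 and 228 RPKM, 251 and 208 RPKM, and 136 and 138 RPKM. Only the starved libraries of the first set stood apart, and none of the other 9 libraries exceeded 251 RPKM. The ratio of starved to fed in the first set was 9.76 in control cells (8.74 to 10.9), 3.73 in the knockout (3.44 to 4.05) and 6.21 under Thiamet-G (5.45 to 7.09). In the second set it was 1.46 (1.26 to 1.69), 0.829 (0.684 to 1.002) and 1.02 (0.811 to 1.28).

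Ordered by mean RPKM of the 2 libraries, starved control cells were highest for all 5 transcripts. For Klf6 the order was starved control at 625 ± 562 RPKM (SD, n = 2), starved knockout at 480.0 ± 385, starved Thiamet-G at 410.5 ± 385, fed knockout at 226 ± 34.8, fed control at 130.3 ± 36.1 and fed Thiamet-G at 123 ± 18.1. Fed Thiamet-G or fed control cells were lowest for each transcript. The ranges of neighbouring groups in the order overlapped for every transcript, with 1 exception: both fed knockout libraries were above both fed control libraries for Klf6. That difference did not pass the test, with a log2 difference of 0.66 ± 0.81 (SE) and a limma adjusted p of 1.00. The share of all transcripts with such a gap was not counted, so the gap is not read as particular to Klf6.

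Differences were tested on log2 of the rescaled RPKM plus 1 with limma over the 10936 transcripts whose mean RPKM was 1 or more, and called at a Benjamini-Hochberg adjusted p under 0.05. On this scale the change of a low transcript is understated. The fit within a set took its spread from the libraries of both sets, so standard errors are the same in each. Within the first set, with background as an additive term, Klf6 rose on starvation by 2.45 ± 0.34 (log2, SE), Junb by 2.84 ± 0.47, Fos by 3.89 ± 0.62 and Egr1 by 3.65 ± 0.43. Their limma adjusted p-values were 0.0045, 0.00995, 0.0078 and 0.0022, and each was higher in 3 of 3 pairs. Jun, at 1.13 ± 0.59, did not pass (limma adjusted p = 0.570), although it too was higher in 3 of 3 pairs. Thus 4 of the 5 were called higher, against 33 of 10936 transcripts or 0.302% (0.878% in either direction), and the median of the 5 was 2.84 against 0.00 over all transcripts. By size of increase Fos was at place 7 of 10936, Egr1 at 10, Junb at 28, Klf6 at 39 and Jun at 522. Every starved library of the set was above every fed one for Klf6, Junb, Fos and Egr1, which held for 11.2% of all transcripts. The calls rest on few libraries: without starved control replicate 1 the limma adjusted p became 0.058 for Klf6, 0.118 for Junb, 0.092 for Fos and 0.054 for Egr1, and without fed control replicate 1 it became 0.061 for Junb and 0.068 for Fos. With eBayes run without a trend only Egr1 passed, and with no filter on low values Junb (0.063) and Fos (0.051) did not.

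Within the second set the same contrast gave 0.09 ± 0.34 (log2, SE) for Klf6, 0.60 ± 0.59 for Jun, 0.69 ± 0.47 for Junb, 0.42 ± 0.62 for Fos and 0.22 ± 0.43 for Egr1. None passed (limma adjusted p from 0.553 to 0.936), and no transcript at all did, while 1370 of 10936 had an unadjusted p under 0.05. The control pair and the Thiamet-G pair had all 5 transcripts higher in the starved library, and the knockout pair had all 5 lower. The share of all transcripts in each direction was not counted. Ordered from the largest increase among transcripts listed in both libraries, the members lay from place 935 (Junb) to 3802 (Klf6) of 10837 in control cells. Under Thiamet-G they lay from 1873 (Fos) to 5270 (Klf6) of 10272, and in the knockout from 6082 (Klf6) to 8796 (Fos) of 10108. No member had every starved library above every fed one in this set, as 5.22% of all transcripts did.

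**Figure D2:**
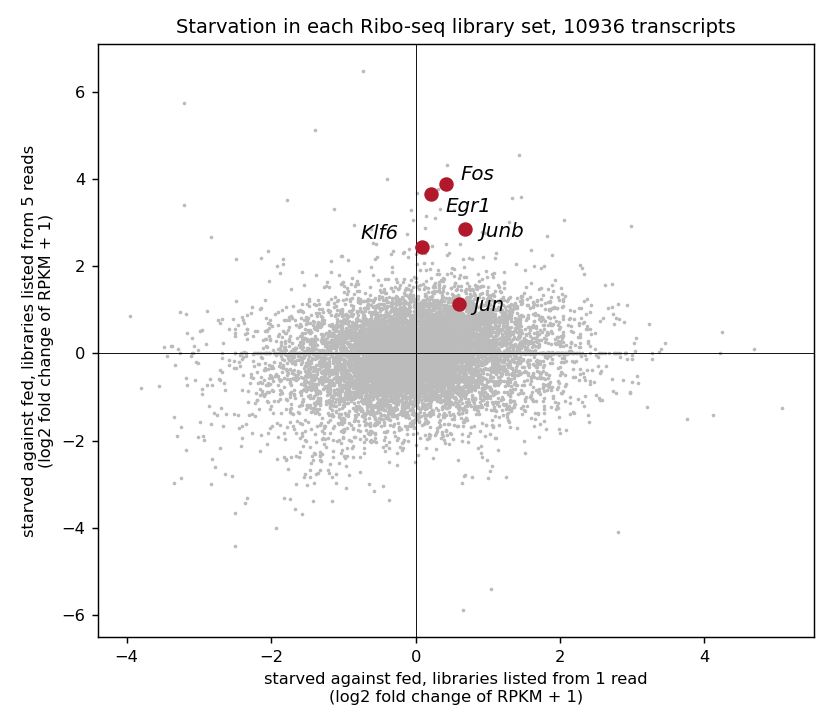
Starved against fed log2 fold change of each of 10936 transcripts (grey) in the Ribo-seq libraries listed from 1 read (horizontal axis) and in those listed from 5 reads (vertical axis), with the 5 members in red. Klf6, Junb, Fos and Egr1 lie at 2.45 to 3.89 on the vertical axis and at 0.09 to 0.69 on the horizontal one.

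The difference between the sets in the response to starvation was tested directly. It was 2.36 ± 0.48 (log2, SE) for Klf6, 0.52 ± 0.83 for Jun, 2.15 ± 0.67 for Junb, 3.47 ± 0.87 for Fos and 3.43 ± 0.61 for Egr1, and none passed (limma adjusted p from 0.133 to 0.906). This test called 0.00914% of all transcripts. With limma-voom on the recovered reads the difference did pass for Klf6 (2.46, adjusted p = 0.028) and Egr1 (3.57, adjusted p = 0.0028), and not for the other 3, while 0.172% of 9911 transcripts were called in that direction.

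In fed cells, Fos was higher in the second set than in the first by 4.17 ± 0.62 (log2, SE; limma adjusted p = 0.0032) and Egr1 by 3.87 ± 0.43 (limma adjusted p = 0.00057), in 3 of 3 backgrounds each. Klf6 (0.40 ± 0.34), Jun (0.80 ± 0.59) and Junb (0.05 ± 0.47) did not pass. Over all transcripts 2.4% were called, 1.53% as higher in the second set. The sets also differed in depth and in the listing threshold, and the part of either in this difference was not tested.

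Averaged over the 3 backgrounds and both sets, 6 starved against 6 fed libraries, starvation gave a log2 difference of 1.27 ± 0.47 (SE) for Klf6, 0.86 ± 0.44 for Jun, 1.77 ± 0.54 for Junb, 2.16 ± 0.93 for Fos and 1.94 ± 0.83 for Egr1. None passed, with limma adjusted p-values of 0.451, 0.596, 0.348, 0.522 and 0.512. The test called 0.174% of transcripts, 19 in all and every one lower in starved cells, and 984 had an unadjusted p under 0.05. The median of the 5 was 1.77 against -0.01 over all transcripts. No member had all 6 starved libraries above all 6 fed ones, as 0.21% of transcripts did. Calls appeared only in settings with a block for the set, most of them when it was used together with limma-voom. With limma-voom on the recovered reads and the set as a block, Klf6 (1.59, adjusted p = 0.0080), Junb (2.03, adjusted p = 0.00042), Fos (1.87, adjusted p = 0.042) and Egr1 (1.92, adjusted p = 0.0052) passed and Jun did not (1.05, adjusted p = 0.162). That fit called 1.67% of 9911 transcripts higher. Without the block, limma-voom called none of the 5 (adjusted p from 0.169 to 0.415). With the set as a block in limma on RPKM none passed, Junb coming nearest (adjusted p = 0.073), and among transcripts listed in every library Junb did (adjusted p = 0.045), as did 0.323% of 8360 transcripts in the higher direction.

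**Figure D3:**
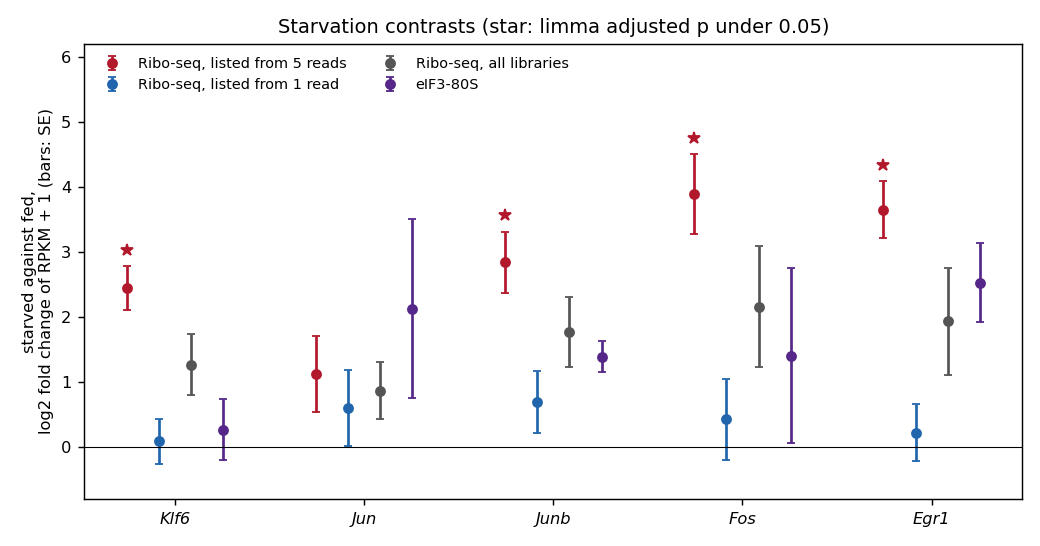
Log2 fold change of starved against fed (points, with SE as bars) for each transcript in the 2 Ribo-seq library sets, in all Ribo-seq libraries and in the eIF3-80S libraries. Stars mark a limma adjusted p under 0.05, which is reached by Klf6, Junb, Fos and Egr1 in the libraries listed from 5 reads and by no other point. The eIF3-80S points of Jun and Fos take unlisted libraries (1 and 7 of 8) as 0.

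Whether the response depended on O-GlcNAc was asked by comparing the backgrounds. In control cells alone, starvation gave log2 differences of 1.80 for Klf6, 1.61 for Jun, 2.44 for Junb, 3.37 for Fos and 2.81 for Egr1. In the knockout they were 0.80, 0.08, 1.22, 1.15 and 1.17, and under Thiamet-G 1.20, 0.91, 1.63, 1.95 and 1.83. All 15 values were above 0 and none passed the test, which called 0% of transcripts in each background, with 744, 99 and 653 transcripts at an unadjusted p under 0.05. The knockout values are means of opposite signs in the 2 sets. Leaving out 1 library at a time moved the control values widely, between 0.71 and 2.87 for Klf6, 1.16 and 2.06 for Jun, 1.41 and 3.46 for Junb, 1.47 and 5.28 for Fos and 1.00 and 4.61 for Egr1. With limma-voom and the set as a block, Junb (2.64, adjusted p = 0.013) and Egr1 (2.79, adjusted p = 0.030) passed in control cells, where 0.787% of 9911 transcripts were called higher.

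The difference of the response in the knockout from that in control cells was -0.99 ± 1.15 (log2, SE) for Klf6, -1.54 ± 1.08 for Jun, -1.22 ± 1.32 for Junb, -2.22 ± 2.28 for Fos and -1.63 ± 2.02 for Egr1. Under Thiamet-G it was -0.60 ± 1.15, -0.70 ± 1.08, -0.81 ± 1.32, -1.42 ± 2.28 and -0.98 ± 2.02. All 10 were below 0 and smaller than 2 standard errors, and the limma adjusted p was 1.00 for each. These comparisons share the control libraries, so their common sign is not independent. Leaving out single libraries turned the sign for 8 of the 10, for example to 0.09 for Klf6 in the knockout without starved control replicate 1, but not for Jun and Junb in the knockout. Within the first and the second set, with 1 library a side and no test, the knockout difference was -1.25 and -0.73 for Klf6, -1.60 and -1.47 for Jun, 0.16 and -2.59 for Junb, -1.81 and -2.63 for Fos and -1.14 and -2.13 for Egr1. The Thiamet-G difference was -0.74 and -0.46, -1.16 and -0.25, -0.79 and -0.83, -2.84 and 0.0028, and -1.60 and -0.35. Klf6, Jun and Egr1 had the same sign in both sets in both comparisons. The share of all transcripts for which this holds was not counted, so it is not read as particular to them.

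In fed cells, the knockout differed from control by 0.66 (log2) for Klf6, 0.35 for Jun, 0.76 for Junb, 1.18 for Fos and 0.42 for Egr1. Thiamet-G cells differed by -0.08, -0.10, 0.23, 0.72 and 0.65. None passed (limma adjusted p = 1.00 for all), no transcript was called in either comparison, and 401 and 51 transcripts had an unadjusted p under 0.05. The standard errors were 0.76 to 1.61 and include the difference between the sets. Within the first and the second set, again with 1 library a side and no test, the knockout differed from control by 0.69 and 0.63 for Klf6, 0.98 and -0.28 for Jun, -0.52 and 2.04 for Junb, 0.59 and 1.77 for Fos and -0.042 and 0.88 for Egr1. Thiamet-G cells differed by -0.014 and -0.15, -0.55 and 0.35, 0.18 and 0.28, 0.78 and 0.66, and 0.75 and 0.55. Klf6 was thus higher in the knockout by nearly the same amount in both sets, and with the set as a replicate block this did not pass either (limma adjusted p = 0.878).

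Similarity to Klf6 was described by Pearson's r over the 12 Ribo-seq libraries, among 8373 transcripts listed in all of them. Junb was at place 6 (r = 0.917), Fos at 1762 (r = 0.414), Egr1 at 1782 (r = 0.410) and Jun at 2064 (r = 0.364). The transcripts most like Klf6 were ENSMUST00000021413 (r = 0.953, 85.2 to 1521 RPKM) and ENSMUST00000074043 (r = 0.948, 29.1 to 577 RPKM), which the files do not name. Over the 6 libraries of the first set r with Klf6 was 0.975 for Fos, 0.956 for Egr1, 0.945 for Junb and 0.804 for Jun. With so few libraries high values were common, and these were at places 73, 194, 265 and 1293. Over the 6 of the second set r was 0.244, 0.028, 0.790 and -0.341, at places 2846, 4063, 281 and 6104. Libraries of a set share a listing threshold but include both fed and starved cells, so r within a set takes in the difference between these states. These values describe the pattern and are not tested.

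On eIF3-80S ribosomes depth was low, with 5 to 227 reads of a member in a library where it was listed. Junb and Egr1 were higher in every starved than in every fed library. Klf6 was listed in all 8 libraries, Junb and Egr1 likewise, Jun in 7 and Fos in 1.

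**Figure D4:**
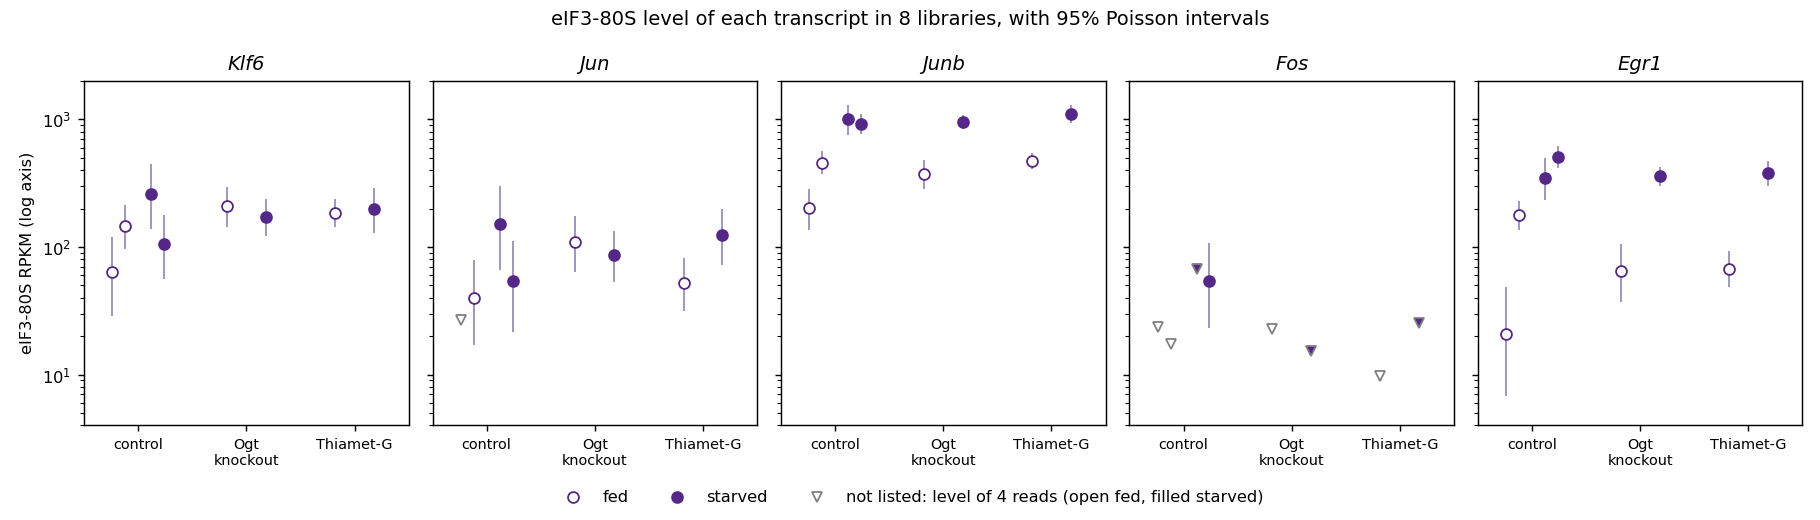
eIF3-80S RPKM (log axis) of each transcript in the 8 libraries, by background, with 95% exact Poisson intervals. Open points are fed and filled points starved, and triangles mark libraries that do not list the transcript, at the level 4 reads would have. For Junb, starved libraries lie at 919 to 1108 RPKM and fed ones at 201 to 473 RPKM.

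For Junb the fed libraries were at 201 and 459 RPKM in control cells, 375 RPKM in the knockout and 473 RPKM under Thiamet-G. The starved ones were at 1000.5 and 919 RPKM, 955 RPKM and 1108 RPKM, in the same order, so the groups did not overlap. For Egr1 the fed libraries were at 21.0 and 178 RPKM, 64.6 RPKM and 67.8 RPKM, and the starved ones at 347 and 512 RPKM, 359 RPKM and 378 RPKM. Again no fed library reached a starved one, as was the case for 2.44% of all 7734 transcripts tested. With background as an additive term, starvation gave a log2 difference of 1.39 ± 0.24 (SE) for Junb and 2.53 ± 0.60 for Egr1. The median over all transcripts, with unlisted values taken as 0, was -0.75. Neither Junb nor Egr1 passed over all transcripts, with limma adjusted p-values of 0.103 and 0.264. The test called 0.284% of transcripts, all 22 lower. Among the 1679 transcripts listed in every library both passed (adjusted p = 0.0077 for Junb and 0.0090 for Egr1), where 4.53% were called higher. With limma-voom on the reads both passed as well (adjusted p = 0.0017 and 0.0013), where 2.45% of 3306 transcripts were called higher. In the single pairs, Junb was 2.55 times as high in starved as in fed knockout cells (95% interval 1.91 to 3.45) and 2.34 times under Thiamet-G (1.87 to 2.92), and Egr1 5.56 times (3.30 to 10.0) and 5.58 times (3.77 to 8.39). These pairs have no replicate.

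Klf6 was at 63.2 and 146 RPKM in fed and 260.5 and 105 RPKM in starved control cells, 209.5 and 173 RPKM in fed and starved knockout cells, and 186 and 198 RPKM under Thiamet-G. The groups overlapped throughout, and the log2 difference was 0.26 ± 0.47 (SE; limma adjusted p = 0.822), or -0.02 with limma-voom. Jun was not listed in the first fed control library, where 4 reads would be 26.7 RPKM, and was at 39.8 RPKM in the second, 153 and 53.9 RPKM in starved control cells, 109 and 86.7 RPKM in fed and starved knockout cells, and 52.6 and 124 RPKM under Thiamet-G. With the unlisted value taken as 0, its log2 difference was 2.13 ± 1.38 (limma adjusted p = 0.676). Fos was listed only in the second starved control library, at 54.2 RPKM from 8 reads. In the other 7 libraries it was below the 5 reads from which these files list transcripts, and 4 reads would be 9.74 to 67.1 RPKM, so its change on eIF3-80S ribosomes was not detectable at this depth.

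Setting eIF3-80S against Ribo-seq in fed control cells gave log2 differences of -0.66 ± 0.91 (SE) for Klf6, -0.14 ± 0.94 for Junb, -1.43 ± 1.59 for Egr1 and -3.01 ± 1.40 for Jun, whose value takes 1 of its 2 eIF3-80S libraries as 0. In starved control cells they were -1.59 ± 0.91 for Klf6, -0.84 ± 0.94 for Junb, -1.40 ± 1.59 for Egr1 and -0.61 ± 1.40 for Jun. Fos is not compared, because neither fed and only 1 starved control library of eIF3-80S lists it. None of the 4 passed (limma adjusted p from 0.140 to 0.936), while 24.4% (fed) and 30.4% (starved) of 10542 transcripts were called, 0.427% and 0.37% as higher in eIF3-80S. The medians over all transcripts were -1.72 and -2.44. In fed cells Klf6, Junb and Egr1 lay above that median and Jun below it, and in starved cells all 4 lay above it. Unlisted transcripts were taken as 0, and the eIF3-80S control libraries listed 1919 to 5807 transcripts. Both medians and the shares called thus depend on values put at 0, and a place above the median may only mean being listed. Among transcripts listed in every library, 64 (fed) and 20 (starved) were called. The sign for Junb in fed cells turned with RPKM as deposited (0.12), with quantile normalisation (0.71) and with limma-voom (0.17), and that for Klf6 turned with quantile normalisation (0.02). The assays select fragments of different lengths, 20 to 70 nt for eIF3-80S and 25 to 35 nt for Ribo-seq, and differ in depth, and the part of these in the differences was not tested.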

How the data were processed

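Each deposited file holds transcript identifiers with RPKM values computed by the authors. Per the submitters' processing notes, cutadapt and STAR were used with the build GRCm38. How reads were counted, with which annotation and with what listing filter is not given in the sources used here. Libraries were grouped by title. Whole reads, library totals and coding lengths were recovered from the RPKM steps within a relative tolerance of 1e-09 (11616 of 15354 transcripts, 99.88% of lengths a multiple of 3), and the step was tested on simulated data (99.95% of reads exact). RPKM values were rescaled by the median ratio, an unlisted transcript was taken as 0, and log2(RPKM + 1) was tested two-sided with lmFit and eBayes (trend) of limma 3.58.1 under R 4.3.3, with Benjamini-Hochberg adjustment. On simulated data, the test averaged over backgrounds recovered 34 of 67 transcripts changed 2-fold and 67 of 67 changed 4-fold, with 9 false calls. The test within the first set recovered 15 of 67 and 60 of 67, with 1 false call. The simulation held no difference between sets or backgrounds and changed only transcripts that were not low, so these shares need not hold for the members. The named genes are the 5 members and the 2 transcripts with the highest correlation to Klf6. The members and lists were chosen with earlier results of these data known. The split into sets was added after seeing the files. Of 29 other immediate-early genes listed and the cell type markers, none could be tested, since 0 identifiers matched the RefSeq table. Alternatives were the pseudocount, scaling, filter, limma-voom, replicate blocks and each library left out.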

Additional observations from a re-analysis of the deposited data

Results flagged for a closer look

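Junb in the 6 fed Ribo-seq libraries was highest in knockout replicate 2, at 928 RPKM, and the gap to the next library was 0.67 of the range. The same library was also the highest fed one for Klf6 (251 RPKM), Fos (232 RPKM) and Egr1 (979.7 RPKM), but not for Jun (48.6 RPKM). It is the fed library of the knockout pair in the second set. The 6 fed libraries span 3 backgrounds and both library sets. Chance alone gives such a gap in about 1 in 20 groups. Transcripts that a library did not list were left out of this search.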

How the results depend on the processing

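Over settings that left out no library, the members kept their direction and side of the threshold in 675 comparisons, passed in 13 where they had not, lost the call in 5 and reversed in 5. The reversed values were -0.022 for Klf6 on starvation in eIF3-80S with limma-voom, and, for eIF3-80S against Ribo-seq in fed cells, 0.12, 0.71 and 0.17 for Junb (RPKM as deposited, quantile, limma-voom) and 0.022 for Klf6 (quantile). The count of transcripts called moved by over 1.5 times as follows, and the cause was not tested. For starvation averaged over backgrounds (19) it was 0 with a pseudocount of 0.1, quantile normalisation, no filter or no trend, 34 among transcripts listed everywhere, 49 with limma-voom, 100 with the set as a replicate block, 104 with that block among transcripts listed everywhere and 273 with that block in limma-voom. The same 2 last settings called 9 and 152 in control cells, and the last called 11 under Thiamet-G and 1 for the knockout difference. The replicate numbers of the titles did not pair the libraries: same-numbered deviations correlated at -0.394 to 0.453 over 15 pairs of groups, against 0.188 to 0.453 when numbered by set. With the title numbers as a replicate block 7 were called for averaged starvation and 4 for eIF3-80S, and no member's call changed. For starvation in eIF3-80S (22) the count was 2 with RPKM as deposited, 7 with quantile, 180 among transcripts listed everywhere, 187 with limma-voom and 0 for control libraries alone. For eIF3-80S against Ribo-seq it was 835 and 676 (fed and starved) with quantile, 64 and 20 among transcripts listed everywhere and 21 and 10 with limma-voom. With no filter, among transcripts listed everywhere and with limma-voom it was 137, 144 and 708 for the fed sets and 0, 0 and 23 for the difference of sets. Within the first set it was 37 with no filter, 5 with no trend and 406 with limma-voom, and within the second 2 with no filter and 31 with limma-voom. Leaving out 1 library gave 0 to 25 for averaged starvation, 2 to 116 and 0 to 93 within the first and second sets, 0 to 24 for their difference, 53 to 382 for the fed sets, 0 to 2 for eIF3-80S, 1459 to 2960 and 1428 to 4949 for eIF3-80S against Ribo-seq, and 0 for the others. It reversed members with these ranges: starvation in the knockout, Fos -1.35 to 3.64, Egr1 -1.10 to 3.44, Jun -0.47 to 0.61 and Klf6 -0.05 to 1.65; under Thiamet-G, Jun -0.027 to 1.83; knockout in fed cells, Jun -0.11 to 0.80, Fos -1.32 to 3.69, Egr1 -1.86 to 2.70 and Junb -0.11 to 1.63. For Thiamet-G in fed cells they were Fos -1.19 to 2.63, Egr1 -1.16 to 2.45, Klf6 -0.31 to 0.14, Jun -1.01 to 0.81 and Junb -0.19 to 0.66. For the knockout difference they were Egr1 -3.92 to 0.63, Klf6 -2.06 to 0.089 and Fos -4.73 to 0.27, and for the Thiamet-G difference Fos -3.33 to 0.48, Egr1 -2.78 to 0.83, Klf6 -1.67 to 0.48, Junb -1.83 to 0.22 and Jun -1.63 to 0.22. For eIF3-80S starvation Klf6 ranged from -0.082 to 0.51, and against Ribo-seq Junb from -0.59 to 0.31 and Egr1 from -3.24 to 0.35 (fed) and Junb from -1.73 to 0.031 and Jun from -1.40 to 0.20 (starved). In the second set Klf6 ranged from -0.073 to 0.24, Fos from -0.10 to 1.03 and Egr1 from -0.15 to 0.70, in the difference of sets Jun from -0.20 to 1.17, and in the fed sets Junb from -0.69 to 0.57. Leaving out control replicate 2 of eIF3-80S left 1 library that does not list Jun (fed) or Fos (starved), so the values against Ribo-seq then rest on a 0 put in its place and are not read. Depth limits what eIF3-80S can show, where a member had 227 reads at most.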
